A study of Mus musculus with 2 samples.

Results

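Arterial endothelial cells of the brain share a set of transcripts that capillary and venous cells hold at lower levels, and 8 of these genes were followed here in sorted brain endothelium. They are *Gja4*, *Gja5*, *Bmx*, *Gkn3*, *Alpl*, *Fbln5*, *Tm4sf1* and *Stmn2*. They were taken by name, and each of the 13 probe sets annotated to one of these symbols alone was used, of 34958 probe sets with 1 gene symbol and 45101 in all. Endothelial cells were sorted from the brain vasculature of C57BL/6 mice without pathology, by CD31 and by Prom1, the mouse CD133. RNA of CD31+ Prom1+ cells and of CD31+ Prom1- cells was amplified and hybridized to 2 Affymetrix mouse genome arrays, 1 array per population. These are called the Prom1-positive-labelled and the Prom1-negative-labelled array. The sources used here do not give the age or number of the mice. The comparison asks how the transcripts of Prom1+ endothelium differ from those of Prom1- endothelium.

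Along the brain vasculature, endothelial cells change gradually from artery through capillary to vein. Arterial identity is set by VEGF and Notch signaling and by SOX transcription factors, and arterial endothelium is joined by connexins, lies on an elastic matrix and is wrapped by smooth muscle. *Gja4* and *Gja5* encode the gap junction proteins connexin 37 and connexin 40. *Bmx* encodes a kinase of the Tec family, *Alpl* the tissue-nonspecific alkaline phosphatase, *Fbln5* a protein of elastic fibers, *Tm4sf1* a small membrane protein of endothelial protrusions and *Stmn2* a microtubule regulator best known from neurons. *Gkn3* belongs to the gastrokines, secreted proteins first described in the stomach, and marks arterial endothelium of the mouse brain.

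All values are signals in multiples of the median of the same array, on which 1 is the median probe set. A floor of 1.67 times the median separated measured from unmeasured signals, and the probe set with the highest mean signal stood for its gene. No population was measured more than once, so the values carry no replicate error, the folds have no replicate check and no p-value can be had. A difference was counted when it reached 2-fold. Probe sets that share a gene had log2 ratios with an SD of 0.54, over 3930 genes. This SD describes how far probe sets of the same gene disagree on these arrays. Error common to all probe sets of an array, as from scaling, is left out of it, and so is variation from mouse to mouse. The median log2 ratio of all measured genes, 0.66, was itself larger than this SD. A ratio above the SD therefore need not stand out from those of other genes. *Prom1*, by its single probe set, had 196 times the median in the Prom1-negative-labelled array and 159 times in the Prom1-positive-labelled array, so this transcript did not separate the arrays the way their labels do. The log2 ratio of -0.30 was smaller in size than the SD, but it was -0.84 with trimmed mean scaling, larger than the SD, and 0.73 with the hybridization controls set equal. Every direction given here rests on the labels. *Pecam1*, which encodes CD31, had 48.2 and 69.2 times the median in the arrays labelled Prom1- and Prom1+.

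Of the 8 arterial genes, 7 were measured on both arrays and 1, *Gja5*, was under the floor on both. None differed by 2-fold in either direction. Over all 10793 genes with a signal above the floor on either array, 28.2% were at least 2-fold higher and 4.77% at least 2-fold lower in the Prom1-positive-labelled array. The 7 measured genes had a median log2 ratio of 0.05, while that of all 10793 genes was 0.66. The single ratios ran from -0.77 for *Gja4* to 0.82 for *Stmn2*. In RNA of sorted populations, fewer cells of a type and less RNA per cell cannot be told apart.

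**Figure D1:**
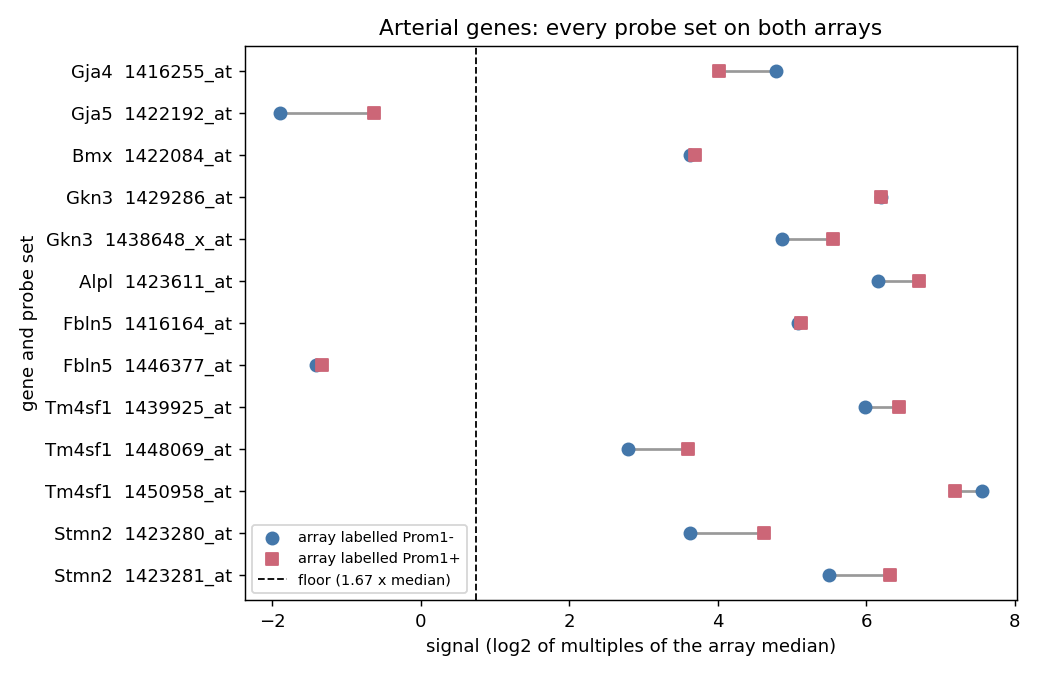
Signal of each of the 13 probe sets, as log2 of the signal over its array median (horizontal axis), in the Prom1-negative-labelled array (circles) and the Prom1-positive-labelled array (squares). The dashed line is the floor of 1.67 times the median. Of the 13 probe sets, 11 lie above the floor on both arrays and 2 below it on both, and the squares lie to the right of the circles in 9 of the 11.

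The connexins were read first. *Gja4* had 27.5 times the median in the Prom1-negative-labelled array and 16.2 times in the Prom1-positive-labelled array, 1.70-fold lower in the latter. Its log2 ratio of -0.77 was larger in size than the SD of 0.54, and it rests on 1 probe set. *Gja5* had 0.269 times the median in the Prom1-negative-labelled array and 0.646 times in the Prom1-positive-labelled array. Both signals lie under the floor, so no fold is given for *Gja5* and its level stayed unmeasured by its single probe set. Among 27 control probe sets for Bacillus transcripts, which are foreign to the mouse, the brightest had 0.276 and 0.234 times the median. The *Gja5* signal was above all 27 controls only in the Prom1-positive-labelled array.

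Other connexins were examined in the same arrays, and 12 of 18 were on the array. Of these 12, 4 reached the floor on at least 1 array. *Gja1* (connexin 43) had 67.0 and 84.5 times the median in the arrays labelled Prom1- and Prom1+, and *Gjc1* (connexin 45) had 55.6 and 65.3 times. By these probe sets, the brightest of each, both differed by less than the SD between probe sets. Another probe set of each lay just above the SD, with log2 ratios of 0.58 for *Gja1* and 0.55 for *Gjc1*. The further measured probe sets of *Gja1* stayed below it. The remaining 2, *Gjb2* and *Gjb6*, were chosen for naming after their values were seen, and each was measured only in the Prom1-negative-labelled array. *Gjb2* had 12.1 times the median there and was at least 7.22-fold lower in the other array, and *Gjb6*, a connexin of astrocytes, had 3.57 times and was at least 2.13-fold lower.

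The promoters of both connexin genes of the set are shown because *Gja4* is the gene with the lowest ratio and *Gja5* the one without a measured level, and that of *Fbln5* because it alone of the members' promoters held matches to 2 of the motifs searched. They are RefSeq sequences of the GRCm38.p6 assembly, from 250 bases before to 50 bases after the annotated start, and are given 5′ to 3′ on the strand of the gene. The windows are chr4:127313990-127314289 on the minus strand for *Gja4*, chr3:97032152-97032451 on the plus strand for *Gja5*, and chr12:101819070-101819369 on the minus strand for the upstream start of *Fbln5*. Capitals mark motif matches.
Gja4: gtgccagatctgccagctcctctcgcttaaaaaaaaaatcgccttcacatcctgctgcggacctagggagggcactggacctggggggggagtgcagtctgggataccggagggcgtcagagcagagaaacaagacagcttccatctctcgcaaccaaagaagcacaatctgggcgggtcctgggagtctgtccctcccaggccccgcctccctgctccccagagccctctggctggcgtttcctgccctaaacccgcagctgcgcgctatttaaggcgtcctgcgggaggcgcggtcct
Gja5: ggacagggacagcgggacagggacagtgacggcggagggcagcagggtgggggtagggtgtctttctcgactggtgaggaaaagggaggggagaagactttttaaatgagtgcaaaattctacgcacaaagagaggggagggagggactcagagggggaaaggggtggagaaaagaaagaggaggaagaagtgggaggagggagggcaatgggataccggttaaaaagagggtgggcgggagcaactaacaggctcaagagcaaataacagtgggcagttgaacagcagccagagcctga
Fbln5: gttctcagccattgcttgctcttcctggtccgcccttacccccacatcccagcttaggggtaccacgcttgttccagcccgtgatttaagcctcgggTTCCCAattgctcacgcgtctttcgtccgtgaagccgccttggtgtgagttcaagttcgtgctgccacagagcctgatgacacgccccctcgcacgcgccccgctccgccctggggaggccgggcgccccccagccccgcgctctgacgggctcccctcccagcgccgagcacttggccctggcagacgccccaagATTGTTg

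Promoters were found for 7 of the 8 genes, 9 windows in all, and none was at hand for *Stmn2*. They were searched on both strands for TGGGAA, the core of the site of the Notch effector RBPJ, for AACAAT, a SOX core, for CACGTG, an E-box, and for TATAAA. In the *Fbln5* window shown, TGGGAA matched on the opposite strand at position 98 and AACAAT on the opposite strand at position 294, counted from the first base printed. Of the 9 windows, 2 held TGGGAA (*Bmx* and *Fbln5*), against 25.6% of 32851 promoter windows of the same length. AACAAT was in 1, against 10.7%, TATAAA in 1 (*Alpl*, its downstream start), against 13.6%, and CACGTG in 0, against 7.15%. Neither connexin window held any of the 4. A match is a description of these letters and not of binding.

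*Bmx*, the arterial kinase, had 12.3 times the median in the Prom1-negative-labelled array and 12.9 times in the Prom1-positive-labelled array. *Gkn3* had 73.4 times on both arrays by its brightest probe set, a log2 ratio of 0.00. By its second probe set, which is of the kind that can cross-hybridize with related sequences, *Gkn3* had 29.2 and 46.7 times, 1.60-fold higher in the Prom1-positive-labelled array. The ratios of these 2 probe sets differed by 0.68 on the log2 scale. The SD of 0.54 is that of single probe sets around the mean of their gene. Differences between 2 probe sets spread more widely than this SD, so 0.68 does not mark an unusual disagreement. Of the relatives of *Bmx*, *Tec* had 15.1 and 23.7 times the median, and *Btk*, a kinase of B cells and myeloid cells, had 1.95 times in the Prom1-negative-labelled array and fell short of the floor on the other array. The other gastrokines, *Gkn1* and *Gkn2*, were under the floor on both arrays.

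*Alpl* had 71.1 and 104 times the median in the arrays labelled Prom1- and Prom1+, 1.47-fold higher in the latter. This log2 ratio of 0.55 was close to the SD between probe sets. The 3 other alkaline phosphatase genes on the array were under the floor on both.

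*Fbln5* had 33.8 times the median in the Prom1-negative-labelled array and 34.9 times in the Prom1-positive-labelled array, a 1.03-fold difference. Its second probe set was under the floor on both, at 0.377 and 0.398 times. Among related genes, *Fbln2* had 8.14 and 15.0 times the median and the large extracellular protein *Hmcn1* had 18.5 and 28.6 times, 1.85-fold and 1.55-fold higher in the Prom1-positive-labelled array.

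*Tm4sf1* is represented by 3 probe sets, and these differed in direction. The brightest had 188 times the median in the Prom1-negative-labelled array and 146 times in the Prom1-positive-labelled array, 1.29-fold lower in the latter. The next had 63.0 and 87.2 times and the dimmest 6.95 and 12.1 times, which is 1.38-fold and 1.74-fold higher. The mean over the 3 gave a log2 ratio of 0.30 where the brightest gave -0.36, so the direction of *Tm4sf1* depends on the probe set. The 3 other genes of its family on the array were under the floor on both arrays.

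*Stmn2* had 45.1 and 79.5 times the median by its brightest probe set and 12.4 and 24.6 times by the other. It was 1.76-fold and 1.99-fold higher in the Prom1-positive-labelled array, and both log2 ratios, 0.82 and 0.99, were above the SD between probe sets. *Stmn2* is best known from neurons, so neuronal genes are given beside it. Over all measured genes 4.77% were at least 2-fold lower and 28.2% at least 2-fold higher in the Prom1-positive-labelled array. Of 16 neuronal genes, 8 were under the floor on both arrays. In the Prom1-positive-labelled array 4 were at least 2-fold lower, 4 stayed within 2-fold and 0 exceeded it upward. Their summed signal was 44.9 times the median in the Prom1-negative-labelled array and 18.1 times in the Prom1-positive-labelled array. The synaptic vesicle protein *Syt1* had 10.2 and 0.0152 times the median by its brightest probe set and was at least 6.09-fold lower. Its other probe sets were under the floor on both arrays, so this fall rests on the brightest alone. *Uchl1* had 6.58 and 9.82 times. The relative *Stmn3* had 5.37 times in the Prom1-negative-labelled array and was at least 3.20-fold lower in the other. By its second probe set *Stmn3* had 2.20 times and fell under the floor in the other array, which bounds a smaller fall. *Stmn1*, used by dividing cells, had 192 and 163 times by its brightest probe set. Its second had 61.9 and 89.1 times, 1.44-fold higher in the Prom1-positive-labelled array. The part of neuronal RNA in the *Stmn2* signal was not tested.

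The arrays differ by a shift that varies with signal, so each arterial gene was set beside the 1000 probe sets nearest to it in mean signal. At a mean log2 signal of 3 to 4 the median log2 ratio of all measured probe sets was 0.87, and at 7 to 8 it was -0.23. Unlike the ratio itself, the distance of a gene from its neighbors in signal does not move with a constant scaling of an array. Of the 7 genes, 5 lay below the median of probe sets of like signal and 2, *Alpl* and *Stmn2*, above it.

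*Gja4* lay farthest from its neighbors. Where it was 0.588-fold, its neighbors had a median fold of 1.78, and 90% of them lay between 0.910 and 2.86. *Bmx* was 1.05-fold beside a median of 1.82 and a central range of 0.771 to 3.07. *Fbln5* was 1.03-fold beside a median of 1.64 and a range of 0.982 to 2.46. For *Gkn3* the median was 1.31 and the range 0.880 to 1.79. Of the 11 probe sets measured on both arrays, 10 lay within the central 90% of their neighbors and 1, that of *Gja4*, lay outside it. The range is set to hold 90% of the neighbors, so 1 of 11 outside it is near the share over all probe sets.

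The brightest members sit where few probe sets differ. Beside *Alpl* the median fold was 1.23 with a range of 0.839 to 1.66, and beside the brightest probe set of *Stmn2* it was 1.42 with a range of 0.912 to 1.99. Beside the brightest of *Tm4sf1* the median was 0.942, with 272 of the 1000 neighbors brighter than it, and 0.1% of the neighbors were at least 2-fold higher, so a higher level could hardly have been counted there.

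**Figure D2:**
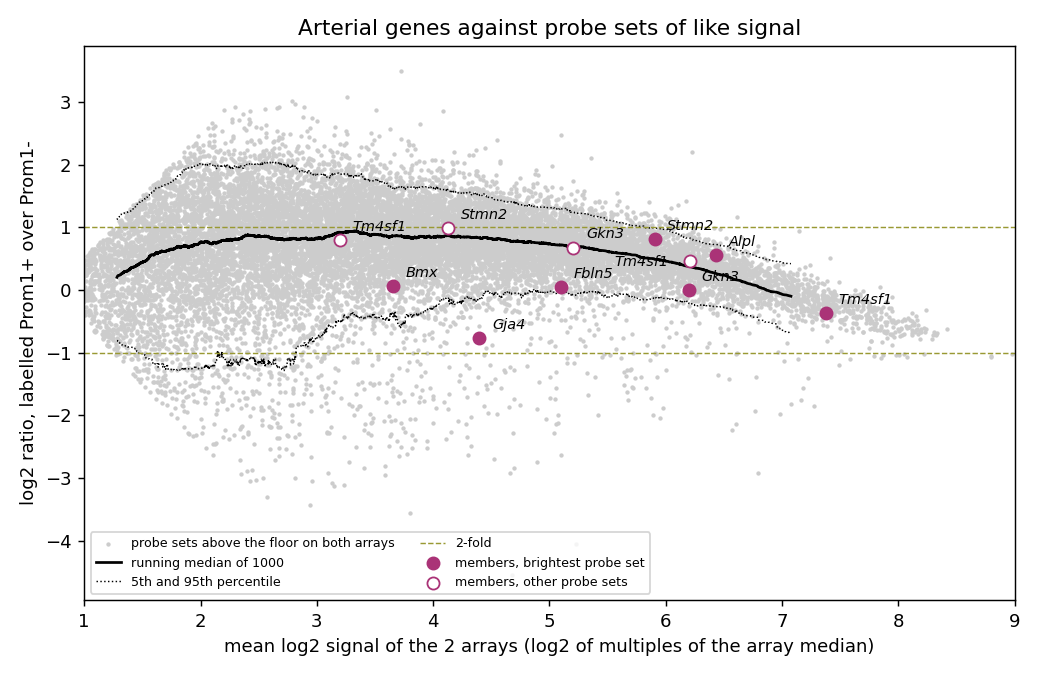
Log2 ratio of the Prom1-positive-labelled array over the Prom1-negative-labelled array against the mean log2 signal of both (signal over its array median), for all probe sets measured on both arrays (grey). The solid line follows the median over 1000 neighboring probe sets and the dotted lines the 5th and 95th percentiles, dashed lines mark 2-fold, and the members are named (filled, brightest probe set; open, others). *Gja4* lies below the 5th percentile, *Bmx*, *Fbln5* and *Gkn3* lie between it and the running median, and *Alpl* and both probe sets of *Stmn2* lie above it.

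The direction of several members depended on how the arrays were put on a common scale. With both arrays scaled to the same 2% trimmed mean, with quantile normalization and with loess, *Gja4* was the 1 member past 2-fold and was lower in the Prom1-positive-labelled array, at log2 ratios of -1.31, -1.48 and -1.60. Under these settings 7.2%, 7.79% and 7.87% of all measured genes were lower by 2-fold. When the hybridization controls were made equal, a scaling added after the data were seen, *Bmx*, *Gkn3*, *Alpl*, *Fbln5* and *Stmn2* were past 2-fold and higher, beside 78.1% of all measured genes. *Gja4* had a log2 ratio of 0.26 there, and the median of all measured genes was 1.63. At a threshold of 1.5-fold *Stmn2* was higher, beside 54.6% of genes, and *Gja4* was lower, beside 7.55%. With no floor *Gja5* would be 2.40-fold higher, beside 28.2% of genes, from 2 signals that the floor treats as unmeasured. In every one of these scalings *Gja4* had the lowest ratio of the 7 and *Stmn2* the highest. A constant scaling cannot change this order, so only quantile normalization and loess could have done so. Under these *Stmn2* had log2 ratios of 0.36 and 0.34, close to the 0.32 and 0.30 of *Alpl*.

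**Figure D3:**
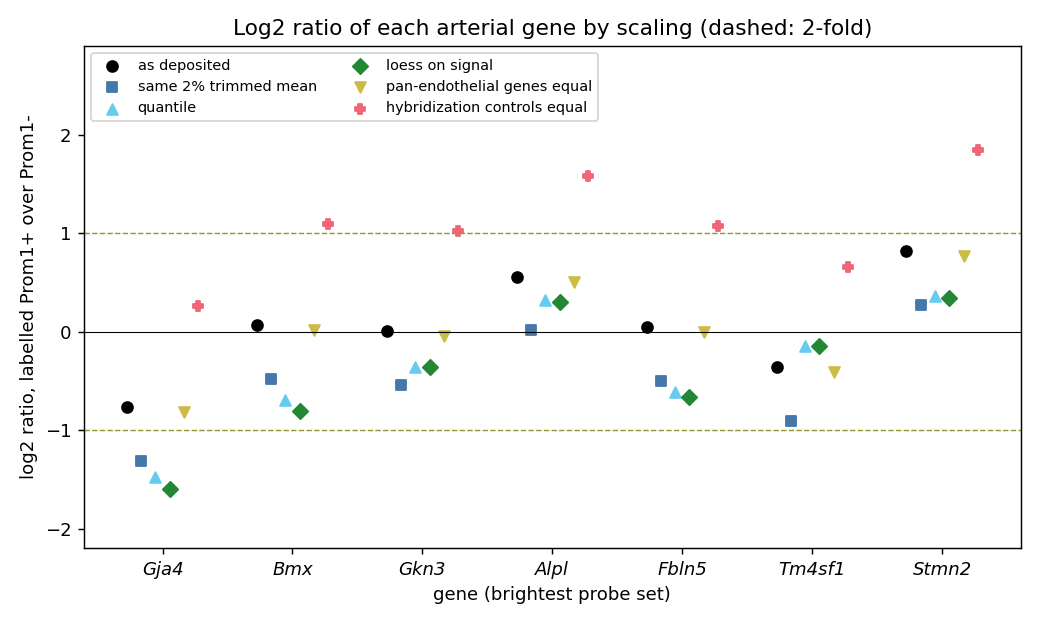
Log2 ratio of the Prom1-positive-labelled array over the Prom1-negative-labelled array for the brightest probe set of each of the 7 measured members (horizontal axis), with 1 symbol per scaling and dashed lines at 2-fold. *Gja4* runs from -1.60 with loess to 0.26 with the hybridization controls set equal, and *Stmn2* from 0.27 with the trimmed mean to 1.84.

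Other genes of arterial endothelium had nearly the same median and a wider range, from -1.86 to 1.33. All 21 genes of a list of further arterial genes were measured on both arrays. In the Prom1-positive-labelled array 2 were at least 2-fold higher, beside 28.2% of all measured genes, and 1 was lower by as much, beside 4.77%. The remaining 18 stayed within 2-fold, and the share lower was near that of all genes. The median log2 ratio was 0.06. Relative to probe sets of like signal 7 lay above the median and 14 below it. The list holds *Vegfc* and *Jag1*, which the study picked from these same arrays.

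Past 2-fold were *Hey2*, *Dll4* and *Vegfc*. *Hey2*, a transcription factor downstream of Notch in arteries, had 47.9 times the median in the Prom1-negative-labelled array and 13.2 times in the Prom1-positive-labelled array, 3.64-fold lower, by its single probe set. The Notch ligand *Dll4* had 6.06 and 12.8 times and was 2.12-fold higher, beside a median fold of 1.84 for probe sets of like signal, and its other probe set was 2.10-fold higher. The growth factor *Vegfc* had 32.0 and 80.4 times and was 2.51-fold higher, with 2.02-fold and 1.69-fold by its other probe sets. The endothelial receptor *Acvrl1*, of the TGF-beta family, was 1.66-fold higher, at 67.2 and 112 times, and 2.05-fold higher by its second probe set. With trimmed mean scaling, quantile normalization and loess, 0 of the 21 genes were at least 2-fold higher, beside 7.62%, 6.38% and 5.55% of all measured genes.

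The brightest further arterial genes differed by less. The calcification inhibitor *Mgp* had 261 and 165 times the median in the arrays labelled Prom1- and Prom1+, 1.59-fold lower in the latter. The transcription factor *Sox17* had 138 and 134 times, the VEGF co-receptor *Nrp1* 151 and 133 times, and the secreted chaperone *Clu* 110 and 92.1 times. By these probe sets the log2 ratios of -0.04, -0.18 and -0.26 were smaller in size than the SD between probe sets. Another probe set of *Nrp1* was 1.51-fold higher in the Prom1-positive-labelled array, at 21.9 and 33.1 times, above the SD and opposite in direction, and one of *Sox17* had a log2 ratio of 0.46.

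Genes of other vessel segments frame these values. Over all measured genes 28.2% were at least 2-fold higher and 4.77% at least 2-fold lower in the Prom1-positive-labelled array. Of 18 capillary genes, all measured on both arrays, 1 was at least 2-fold higher there and 17 differed by less. The 1 was the carrier *Slc16a4*, at 18.1 and 45.4 times the median. By its second probe set *Slc16a4* had 5.68 and 5.25 times, and after loess 0 of the 18 were past 2-fold. The median log2 ratio of the 18 was -0.24. Relative to probe sets of like signal 4 of the 18 lay above the median and 14 below it. The median log2 distance from it was -0.17, and for the other arterial genes it was also -0.17. The brightest capillary genes were *Spock2*, at 315 and 194 times, and the efflux pump *Abcb1a*, at 270 and 223 times. The direction of *Spock2* depends on the probe set, since its second had 11.4 and 17.7 times, 1.54-fold higher in the Prom1-positive-labelled array. Of 17 venous genes that reached the floor, of 18 on the array, 11 exceeded 2-fold upward, beside 28.2% of all measured genes. Downward it was 0, beside 4.77%, and the median log2 ratio of the 17 was 1.14. Of the 14 measured on both arrays, 10 lay above the median of probe sets of like signal. After loess 2 of the 14 were past 2-fold upward, *Ch25h* and *Slc38a5*, and 1 downward, *Nr2f2*. Of all measured genes, loess left 5.55% past 2-fold upward and 7.87% downward. *Slc38a5* is named here after its values were seen. The list holds *Lcn2*, *Selp* and *Vcam1*, which the study picked from these same arrays. The oxysterol enzyme *Ch25h* was 7.45-fold higher, at 2.15 and 16.0 times, while the venous transcription factor *Nr2f2* had 77.5 and 42.1 times, 1.84-fold lower by its brightest probe set. The direction of *Nr2f2* depends on the probe set, since others had log2 ratios of 0.18 and 0.33. *Vwf* had 126 and 159 times and *Tmsb10* 357 and 231 times. Several of the venous genes, such as *Icam1* and *Vcam1*, named here outside the naming rule, also rise in activated endothelium. The difference between the arterial and the venous lists was not tested. Among 23 pan-endothelial genes, 2 rose past 2-fold in the Prom1-positive-labelled array, 0 fell past it and 21 stayed within it, with a median log2 ratio of 0.05.

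Arteries carry smooth muscle, and its transcripts moved in the same arrays. Over all measured genes 4.77% were at least 2-fold lower in the Prom1-positive-labelled array and 28.2% at least 2-fold higher. Of 17 smooth muscle genes 12 were at least 2-fold lower, 0 were higher by that much and 5 stayed within 2-fold, with a median log2 ratio of -1.83. Their summed signal was 1535 times the median in the Prom1-negative-labelled array and 504 times in the Prom1-positive-labelled array. The actin *Acta2* had 295 and 81.6 times the median, *Myl9* 263 and 78.2 times, and the smooth muscle transcription factor *Myocd* 33.5 and 4.32 times, 7.75-fold lower. *Smtn* had 19.9 and 27.7 times. Of 12 pericyte genes 11 were at least 2-fold lower, with a summed signal of 667 and 268 times. Of the fibroblast genes 9 of 11 reached the floor and 6 were at least 2-fold lower, and of the microglial genes 7 of 8 did and 5 were. Of 4 astrocyte genes above the floor 1 was at least 2-fold lower, and of 4 oligodendrocyte genes 2 were lower and 1 was higher. Connexin 37 and fibulin 5 are also made by cells of the vessel wall other than endothelium. The part of such cells in the values of *Gja4*, *Fbln5* and *Hey2* was not tested.

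**Figure D4:**
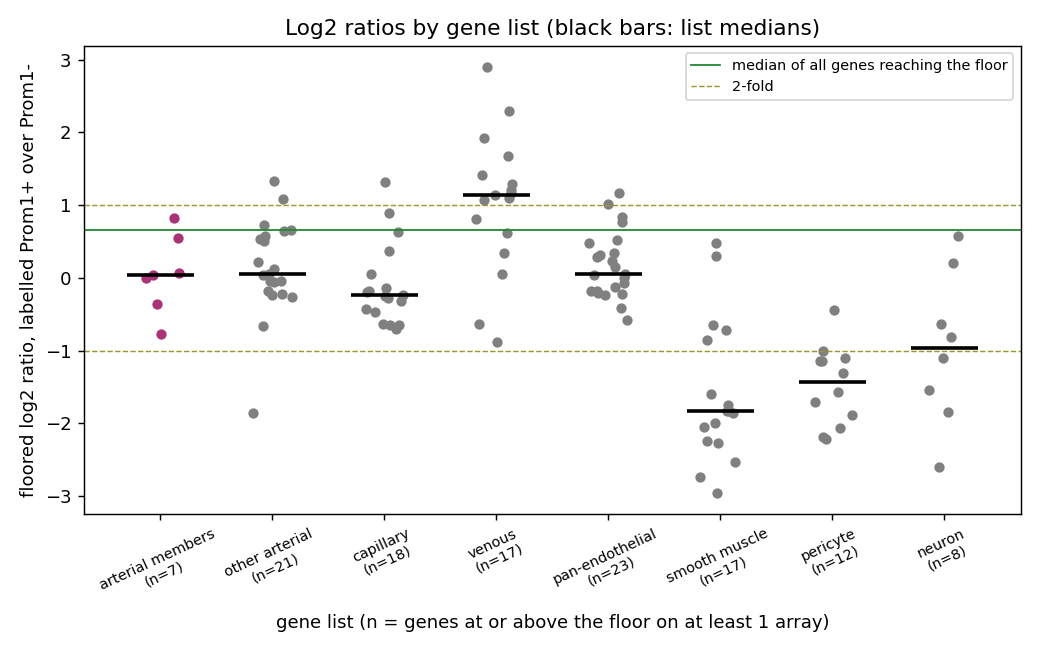
Floored log2 ratio of the Prom1-positive-labelled array over the Prom1-negative-labelled array for each gene above the floor on either array, by gene list, with black bars at the list medians, dashed lines at 2-fold and a green line at 0.66, the median of all 10793 genes. The arterial members and the other arterial genes have medians of 0.05 and 0.06, the venous genes 1.14, and the smooth muscle genes -1.83.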

How the data were processed

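RNA of the sorted cells was amplified, labeled with biotin and hybridized to Affymetrix arrays. The authors set the signal target to 500 and used GeneSpring for normalization, and the submitters' processing notes name MAS5. Deposited were log2 values relative to the array median, which is 0 on both arrays. How the median was set to 0 is not given in the sources used here.

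Log2 values were taken back to linear signals. The floor, 100 on the target scale, corresponds to 1.67 times the median when the 2% trimmed means of the arrays are averaged and set to the target. Names came from the platform annotation, and 34754 of 34958 with 1 symbol were updated through the GRCm38.p6 gene table, used for names only. The brightest probe set by mean signal stood for a gene. Where 1 signal lay under the floor, the fold is a bound. The number of arrays limits the precision.

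The members and lists were chosen with earlier results of these data known. Named were all members, from the other arterial genes the 4 brightest and the 3 largest ratios each way, from the venous, capillary, smooth muscle and neuronal lists the 2 brightest and the largest ratio each way, and from gene families the 2 brightest above the floor. The pan-endothelial, astrocyte, oligodendrocyte, microglia and fibroblast lists were also counted. Alternatives were floors of 50 and 200 or none, thresholds of 1.5-fold and 3-fold, 4 other scalings (loess with a span of 0.2), the mean over probe sets, and dropping probe sets of the _x_at and _s_at kinds. The hybridization controls were added later. The rules were tested on simulated data. The simulated arrays held no shift that varies with signal, and changes were put only into genes well above the floor. The simulation therefore does not check the rules under the shift seen in these arrays. Python 3.11.15, numpy 2.4.6, pandas 2.3.3, statsmodels 0.14.6 and matplotlib 3.10.9 were used.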

Additional observations from a re-analysis of the deposited data

How the results depend on the processing

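The count of arterial members past the threshold was 0 in each direction. The number higher in the Prom1-positive-labelled array became 1 at 1.5-fold, 1 with no floor and 5 with the hybridization controls set equal, a scaling chosen after seeing the data. The number lower became 1 at 1.5-fold, 1 with loess, 1 with quantile normalization and 1 with trimmed mean scaling. Of the other arterial genes, 2 were higher, against 5 at 1.5-fold, 0 at 3-fold, 0 with loess, 0 with quantile normalization, 0 with trimmed mean scaling and 12 with the controls set equal. Lower was 1, against 2 at 1.5-fold, 3 with loess, 2 with trimmed mean scaling and 0 with the controls set equal. Of all measured genes 28.2% were higher, against 54.6% at 1.5-fold, 6.6% at 3-fold and 78.1% with the controls set equal. With loess, quantile normalization and trimmed mean scaling 5.55%, 6.38% and 7.62% of them were higher. Lower were 4.77%, against 7.55% at 1.5-fold, 7.87% with loess, 7.79% with quantile normalization, 7.2% with trimmed mean scaling and 2.32% with controls set equal. The median log2 ratio of the other arterial genes, 0.06, became 1.08 with the controls set equal and -0.48 with trimmed mean scaling. These scalings move the median of all genes from 0.66 to 1.63 and 0.13, and which of them fits these arrays was not tested. No paired analysis was possible because each population has 1 array. With 1 array per population, no replicate could be left out, and signals under 1.67 times the median give only bounds.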
